A study of Mus musculus with 7 samples.

Results

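Krt18, Krt8, Krt19 and Krt7, the keratins of simple epithelia, were followed through the RNA-seq and ChIP-seq libraries of a study that removed the distal Sox2 super-enhancer (Sox2-SEdistal) from mouse ESCs with a pair of CRISPR guides. The genes were chosen on the measured contrast, because Krt18 stood out by its log2 ratio in the mutant clones (rank 1 in CAST-/129+ and CAST-/129-, rank 2 in CAST+/129-), so that their RNA levels against wild type are a description and carry no test. They are 4 of the 31498 genes counted and 4 of the 51 genes that GENCODE M1 names Krt followed by a number. F123, the ESC line edited, is a hybrid that carries 1 CAST and 1 129 allele of each gene, and RNA-seq was performed on 4 genotypes of it with 1 library each. CAST+/129+ is the wild type, with the enhancer present on both alleles. CAST+/129- has lost the 129 copy, CAST-/129+ has lost the CAST copy, and CAST-/129- has lost both. ChIP-seq was performed on unedited cells, for H3K4me3 in F123 and for H3K27ac in F123 and in J1, an ESC line of a 129 background, with 1 library each. Per the study's methods, edited cells recovered on MEF feeders, and F123 cells were grown feeder-free on gelatin for harvest. Each mutant genotype is therefore 1 clone, and the effect of a genotype and the history of its clone cannot be told apart.

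Keratins are the intermediate filament proteins of epithelial cells. Each filament is built from pairs of a type I and a type II keratin, and a keratin without a partner is known to be degraded. Among the members, Krt18 and Krt19 are type I and Krt8 and Krt7 are type II. Krt8 and Krt18 are the first keratins of the mouse embryo, where they mark the trophectoderm. Krt19 and Krt7 are found in ducts, glands and other simple epithelia.

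Values of the 4 RNA-seq libraries are given in the order wild type, CAST+/129-, CAST-/129+, CAST-/129- throughout, and values of the mutant clones in the same order. The libraries held 24848422, 12458881, 6058939 and 5831199 alignments on genes. Each alignment is 1 line of a deposited file, where reads with the same placement share a line and a spliced read appears as separate segments, so that a read over a junction counts in each exon it touches. FPKM was computed from alignments on the exonic bases that belong to a single gene, per kilobase and scaled to the alignments on genes. Ratios to wild type are log2 of FPKM plus 4, the pseudo number of the study's methods, and a 3-fold threshold was applied. The study computed FPKM for RefSeq genes with its own scripts, so the counts of genes past the threshold here are not the study's. Values in parentheses after a level or fold are exact 95% intervals from Poisson counts, and they cover counting error only. They take alignments as independent, and a spliced read gives more than 1, so the RNA intervals can be too narrow. Sox2, the gene for which the deleted enhancer is named, was at 175, 82.0, 73.1 and 7.40 FPKM, and followed the labels. The ESC marker Pou5f1 was at 188, 132, 207 and 163 FPKM. Over genes that reached 5 FPKM in some library, the median log2 ratio was -0.01, -0.07 and -0.09. On chromosome 15, which carries Krt18, Krt8 and Krt7, it lay between -0.06 and 0.01, and on chromosome 11, which carries Krt19, between -0.05 and -0.01.

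The promoters of 3 members are shown because the members were all higher in the mutant clones and lie at separate places. Krt8 and Krt18 lie head to head on chromosome 15, with their starts 23.9 kb apart, Krt7 lies 592 kb from Krt8, and Krt19 lies on another chromosome. The sequences are those of RefSeq, run from 250 bases before to 50 bases after the start, and matched mm9 exactly. Capitals mark the TATA box letters (TATAAA), the GC box letters (GGGCGG) and the AP-1 letters (TGANTCA), on either strand. Krt19 had no entry in the table.
Krt18 promoter, mm9 chr15:101858397-101858696, plus strand: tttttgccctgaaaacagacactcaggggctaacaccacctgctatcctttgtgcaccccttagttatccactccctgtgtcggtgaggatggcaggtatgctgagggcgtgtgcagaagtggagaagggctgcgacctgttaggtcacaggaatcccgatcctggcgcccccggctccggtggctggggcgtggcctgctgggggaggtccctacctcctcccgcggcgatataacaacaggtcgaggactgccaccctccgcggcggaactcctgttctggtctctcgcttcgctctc
Krt8 promoter, mm9 chr15:101834724-101835023, minus strand: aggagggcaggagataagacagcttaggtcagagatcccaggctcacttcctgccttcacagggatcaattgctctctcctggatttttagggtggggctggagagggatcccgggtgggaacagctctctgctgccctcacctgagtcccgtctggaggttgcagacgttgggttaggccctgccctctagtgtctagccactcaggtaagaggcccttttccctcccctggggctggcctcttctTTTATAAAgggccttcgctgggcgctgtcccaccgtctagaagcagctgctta
Krt7 promoter, mm9 chr15:101242584-101242883, plus strand: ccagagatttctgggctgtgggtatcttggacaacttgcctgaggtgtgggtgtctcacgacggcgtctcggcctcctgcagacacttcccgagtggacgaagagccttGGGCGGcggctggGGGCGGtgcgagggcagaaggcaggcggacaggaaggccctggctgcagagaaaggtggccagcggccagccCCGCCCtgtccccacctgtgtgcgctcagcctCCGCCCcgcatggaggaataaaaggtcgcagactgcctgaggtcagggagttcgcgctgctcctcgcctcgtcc
The Krt8 promoter held the TATA box letters on both strands, with first bases at -3 and -1 from the start and overlapping each other. The Krt7 promoter held 4 copies of the GC box, which Sp1 is known to bind, with first bases at -141 and -128 on its own strand and at -56 and -24 on the other. The Krt18 promoter held neither. Of 32851 promoters of the same length, 13.6% held the TATA box letters, 35.7% the GC box letters and 7.81% the AP-1 letters. No promoter shown held the AP-1 letters. None held CCGGAA, a form of the ETS site (14.9% of promoters). Other forms and the shorter GGAA, which occurs in the sequences shown, were not searched. None held GGAATG, the TEAD core (14.7%). None held ATGCAAAT, the octamer (1.74%). Each was searched on both strands. CNTTGT, the core recognised by SOX factors, was found once, in Krt18 at -203, and in 41.2% of all promoters. The GC content was 61.3% in Krt18, 58.0% in Krt8 and 66.3% in Krt7, against a median of 52.7%, and the number of CpG was 17, 6 and 21 against a median of 7. No motif among those searched was shared by the promoters shown, and a match of letters is not a bound site.

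All 4 members passed 3-fold upward in each mutant clone, against a background of 0.321% of all genes in CAST+/129-, 0.473% in CAST-/129+ and 0.819% in CAST-/129-, and 0 of 4 passed it downward, where the background was 0.305%, 0.33% and 0.511%. Since the genes were chosen on this contrast, nothing is read from these counts. The comparisons share the wild type library. In bulk RNA, more cells that make a keratin and more keratin RNA per cell cannot be told apart.

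Krt18 (type I, 7 exons, mm9 chr15:101858647-101862457, plus strand) had 63, 2324, 1946 and 1889 alignments. These are 1.81 FPKM (1.39 to 2.32), 133 (128 to 139), 229 (219 to 240) and 231 (221 to 242). The wild type library stood far below the rest, and the libraries without the CAST copy stood above CAST+/129-. The folds over wild type were 73.6 (57.3 to 96.1), 127 (98.6 to 166) and 128 (99.4 to 167). The log2 ratio was the largest of all genes counted in CAST-/129+ and CAST-/129-, at 5.33 and 5.34, and ranked 2 in CAST+/129-, at 4.56. By the plain fold, without the pseudo number, Krt7 exceeded Krt18 in every mutant clone. The CAST-/129- level was 1.01 times that of CAST-/129+ (0.946 to 1.08), a difference within counting error, and 1.74 times that of CAST+/129- (1.63 to 1.85).

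Krt8 (type II, 9 exons, chr15:101827142-101834773, minus strand) had the highest wild type level of the members. Its alignments numbered 654, 3127, 2889 and 2935, which are 14.6 FPKM (13.5 to 15.7), 139 (134 to 144), 264 (255 to 274) and 279 (269 to 289). The folds over wild type were 9.54 (8.76 to 10.4), 18.1 (16.6 to 19.8) and 19.1 (17.6 to 20.8), with log2 ratios of 2.94, 3.85 and 3.93. As for Krt18, the level in CAST+/129- lay below both others. CAST-/129+ was at 1.90 times that level (1.81 to 1.999), and CAST-/129- at 2.01 times (1.91 to 2.11). Among all genes counted, Krt8 stood at percentile 81.5 in wild type and 99.7 in CAST-/129-.

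Krt19 (type I, 6 exons, chr11:100002124-100007434, minus strand) had 110, 1121, 789 and 585 alignments. Its level was 2.39 FPKM (1.96 to 2.88), 48.5 (45.7 to 51.4), 70.2 (65.4 to 75.3) and 54.1 (49.8 to 58.6). The folds over wild type were 20.3 (16.7 to 24.95), 29.4 (24.1 to 36.2) and 22.7 (18.5 to 28.0), with log2 ratios of 3.04, 3.54 and 3.19. The order of the mutant clones was not that of Krt18 and Krt8. Krt19 in CAST-/129- was at 0.770 times its level in CAST-/129+ (0.691 to 0.858), and at 1.115 times its level in CAST+/129- (1.01 to 1.23).

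Krt7 (type II, 9 exons, chr15:101242833-101260744, plus strand) was nearly absent from wild type, with 3 alignments there and 756, 572 and 392 in the mutant clones. These are 0.0171 FPKM (0.00353 to 0.0501), 8.61 (8.01 to 9.24), 13.4 (12.3 to 14.5) and 9.54 (8.62 to 10.5). With 3 alignments in wild type the folds are wide, at 503 (171 to 2443), 782 (266 to 3803) and 557 (189 to 2712). Wild type had 9 alignments on the opposite strand of Krt7 and the mutant clones 5, 4 and 1. The pseudo number brought the log2 ratios down to 1.65, 2.11 and 1.75, so that Krt7 lay closest to the 3-fold threshold of the members. It fell below the threshold in CAST+/129- when reads were counted in place of alignments, at 1.36, and in all mutant clones with a pseudo number of 10, at 0.89, 1.22 and 0.96. Like Krt19, Krt7 was lower in CAST-/129- than in CAST-/129+, at 0.712 times (0.625 to 0.811).

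The level of Krt7 also depended on the annotation. Its unique exonic bases number 7049, of which the last exon of the main transcript takes 2800 and had 4.82 to 7.96 FPKM in the mutant clones, while its other exons had between 31.3 and 141. The main transcript has 4094 bases and held 756, 571 and 391 of the 756, 572 and 392 alignments in the mutant clones. Over it alone, a measure also taken after seeing the data, Krt7 was at 14.8, 23.0 and 16.4 FPKM. Over the 1371 coding bases alone, a measure chosen after seeing the data, Krt7 had 2 alignments in wild type, at 0.0587 FPKM, and 38.0 FPKM (35.1 to 41.0), 59.0 (53.9 to 64.4) and 44.2 (39.7 to 49.0) in the mutant clones. The log2 ratios were then 3.37, 3.96 and 3.57. Krt19 over its coding bases was at 63.1, 92.4 and 69.9 FPKM, so that Krt19 stayed above Krt7, by 1.66-, 1.57- and 1.58-fold.

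**Figure D1:**
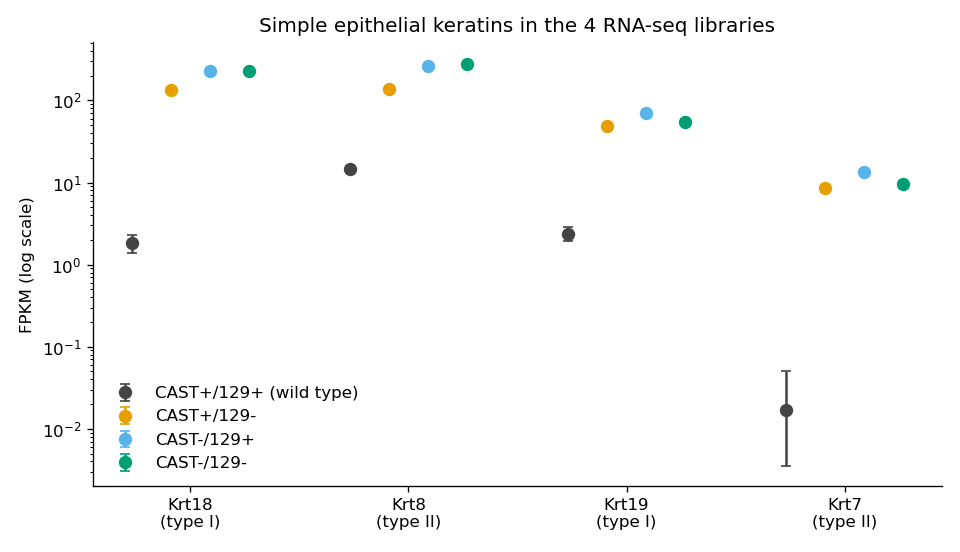
FPKM of Krt18, Krt8, Krt19 and Krt7 (log axis) in the wild type and the 3 mutant libraries, with exact 95% Poisson intervals that are hidden by the points where counts are high. In each gene the wild type point lies below all mutant points, from 0.0171 against 8.61 FPKM or more for Krt7 to 14.6 against 139 or more for Krt8.

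The folds depended on the unit of counting. Reads in place of collapsed alignments enlarged the plain folds, without the pseudo number, for all members. The wild type library held 2.61 reads per alignment on genes, and the mutant libraries between 1.47 and 1.78. By reads, the folds were 137, 249 and 259 for Krt18, 15.5, 34.9 and 37.8 for Krt8, 31.1, 47.1 and 36.3 for Krt19, and 719, 1293 and 965 for Krt7. With the pseudo number, reads raised the log2 ratios of Krt18 and Krt8 and those of Krt19 slightly. They lowered those of Krt7, to 1.36, 1.93 and 1.63. Counting each start position once lowered the log2 ratios of Krt18 to 3.95, 4.63 and 4.64, those of Krt8 to 2.25, 3.02 and 3.08, and those of Krt19 to 2.75, 3.25 and 2.91. The same unit gave 1.83, 2.21 and 1.83 for Krt7, above its values from alignments. This unit is capped near the number of exonic bases, which is 1400 for Krt18, 1805 for Krt8 and 7049 for Krt7. The alignments of Krt18 and Krt8 outnumber these bases in the mutant libraries but not in wild type. The cap therefore lowers their ratios.

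The ratios between the keratins are a description, since Krt18 was the gene the choice rested on and a lower ratio to Krt18 in the mutant clones follows from its larger fold. Krt8 exceeded its partner Krt18 by 8.05-fold (6.21 to 10.6) in wild type. In the mutant clones the ratio was 1.04 (0.989 to 1.10), 1.15 (1.09 to 1.22) and 1.21 (1.14 to 1.28). The interval in CAST+/129- includes equal levels, and over coding bases Krt8 was there at 0.984 times Krt18. By reads the ratio was 9.32 in wild type and 1.05, 1.31 and 1.36 in the mutant clones. Summed over both members of a type, type II over type I was 3.48 in wild type and 0.812, 0.926 and 1.01 in the mutant clones. Krt19 relative to Krt18, the other type I member, was 1.32 (0.958 to 1.83) in wild type and 0.364, 0.306 and 0.234 in the mutant clones. In wild type the order of levels was Krt8, then Krt19 and Krt18, then Krt7. Krt19 and Krt18 did not differ there beyond counting error over all exonic bases, but over coding bases Krt19 was at 3.23 FPKM (2.62 to 3.94) and Krt18 at 1.81 (1.37 to 2.34). In the mutant clones it was Krt8 and Krt18, then Krt19, then Krt7.

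**Figure D2:**
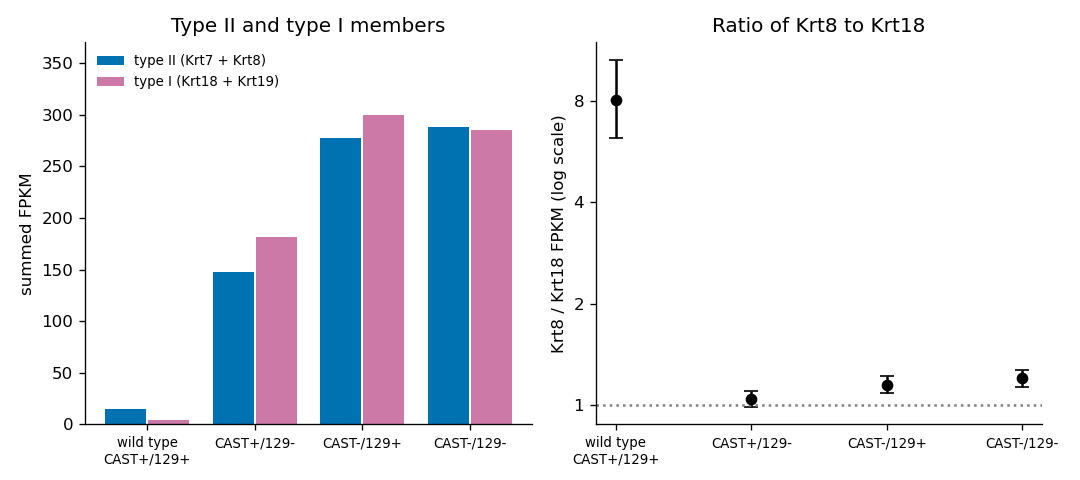
Left, summed FPKM of the type II members (Krt7 and Krt8) and the type I members (Krt18 and Krt19) in each RNA-seq library. Right, the ratio of Krt8 to Krt18 (log axis) with its exact 95% interval and a dotted line at equal levels, which falls from 8.05 in wild type to between 1.04 and 1.21 in the mutant libraries.

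The alignments lay on spliced exons. All 7 exons of Krt18, 9 of Krt8 and 6 of Krt19 had alignments in all 4 libraries, and every such exon was higher in each mutant clone than in wild type, by 34.9- to 215-fold for Krt18, by 5.40- to 28.5-fold for Krt8 and by 13.6- to 49.7-fold for Krt19. In CAST-/129-, 674 of 1889 Krt18 alignments and 974 of 2935 Krt8 alignments ended exactly at an inner exon boundary, and 0 crossed one. Introns, taken 50 bases away from any exon, held 0 alignments on the strand of the gene in every member and library. In wild type 31 of 63 Krt18 alignments ended at an exon boundary, while 0 of the 3 Krt7 alignments did, of which 1 lay in exon 2 and 2 in exon 9.

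The 5′ ends of the transcripts could be set beside the promoter letters. In CAST+/129-, 129 Krt18 alignments began within the first 25 bases after the annotated start and 98 in the next 25. For Krt8 in the same library, 7 began in the first 25 bases and 186 in the next 25, and in CAST-/129- 1 and 137 did, so that most Krt8 alignments near the start began downstream of the TATAAA that lies at the annotated start. For Krt19 the nearest alignment began 155 to 206 bases after the annotated start across the libraries, so that the annotated 5′ part of its first exon had no alignment beginning in it.

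**Figure D3:**
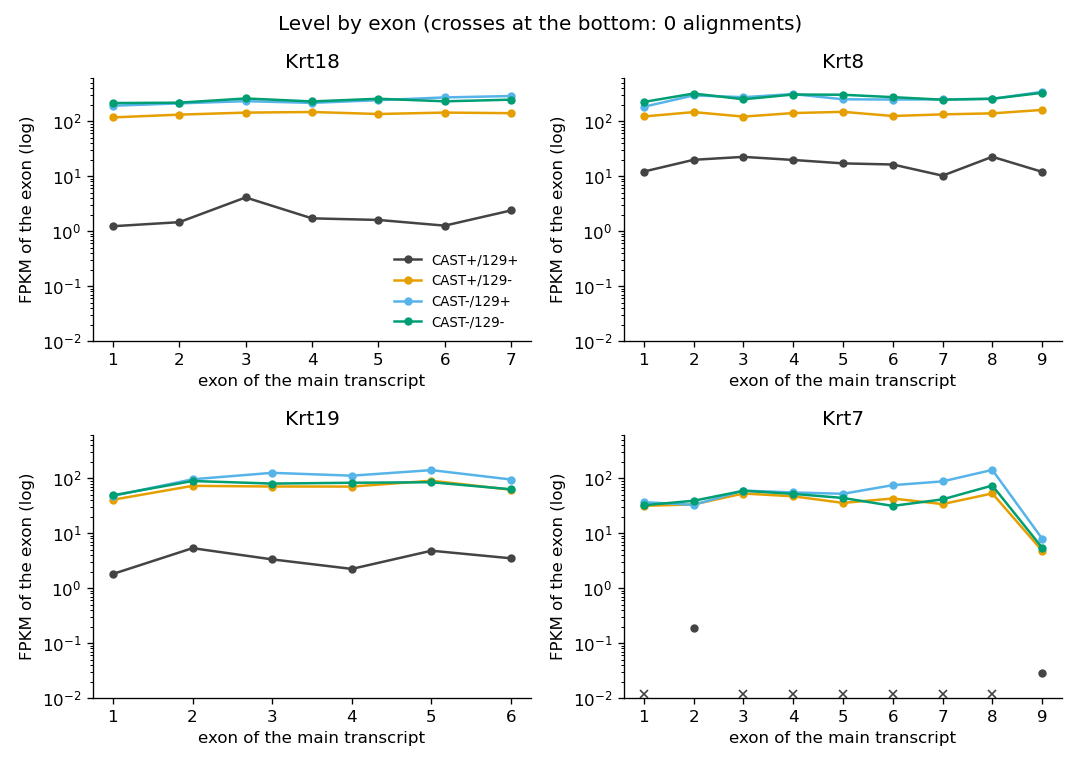
FPKM of each exon (log axis) along the main transcript of each member in the 4 RNA-seq libraries, with crosses at the bottom for exons with 0 alignments. Mutant levels lie above wild type in all exons of Krt18, Krt8 and Krt19, and the last exon of Krt7, of 2800 bases, lies lower than its other exons in the mutant libraries.

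Intronless copies of Krt8 and Krt18 elsewhere in the mm9 genome took few alignments. The closest copy of Krt8, at chromosome 7:24142113-24143830 with 97.9% identity, lies at Nlrp4e and held 0 alignments in every library. A copy of Krt18 on chromosome 13 with 90.5% identity held 0, 11, 8 and 8, which is at most 0.473% of the Krt18 count. How the authors treated reads that match several places is not given in the sources used here.

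Of the 47 other genes named Krt followed by a number, 40 stayed under 1 FPKM in all libraries and 11 had no alignment in any. None passed 3-fold in either direction in any mutant clone, a count that genes at such levels give by the pseudo number and that is not set against the members. Only Krt42, a type I keratin of chromosome 11, reached 5 FPKM, at 7.98, 9.15, 5.80 and 1.85. Krt14, the type I keratin of basal epidermis, was at 0.229, 1.23, 3.57 and 1.56 FPKM, and its usual partner Krt5 had 8, 2, 0 and 2 alignments. Members made up 52.7% of the summed keratin FPKM in wild type and 94.7%, 96.9% and 97.8% in the mutant clones.

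Without a threshold, 18, 19 and 14 of the other keratins were above their wild type FPKM in the mutant clones and 14, 10 and 12 below it. Krt13, Krt23, Krt74, Krt86 and Krt1 had 92, 22, 11, 5 and 4 alignments in wild type and 0 in each mutant library, and were singled out after their values were seen. Krt13, a type I keratin of stratified mucosa, was at 2.03 FPKM in wild type, a rate that would give 46.1, 22.4 and 21.6 alignments in the mutant libraries. With a limit of 3 counts per library for a count of 0, its wild type level was 15.4, 7.48 and 7.20 times that limit. For Krt23 the wild type level was 3.68, 1.79 and 1.72 times the limit. These multiples leave out the counting error of wild type. The exact intervals of Krt23 overlapped between wild type (lower end 0.355 FPKM) and CAST-/129+ and CAST-/129- (upper ends 0.389 and 0.404). With the pseudo number none of the 5 reached the 3-fold threshold.

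The counts of the gene lists that follow stand against the same background, 0.321%, 0.473% and 0.819% of all genes upward and 0.305%, 0.33% and 0.511% downward. With so small a share, a count of 0 in a short list is what the background gives and says nothing about the list. These shares are over all 31498 genes. A gene under 5 FPKM in every library cannot pass 3-fold with the pseudo number, and 10809 genes reached that level. The share among genes able to pass is therefore larger than the background given. Genes with little RNA in all libraries have ratios near 0 by the pseudo number, so the number of genes that reached 5 FPKM in some library is given for lists with many such genes. Of 19 genes of desmosomes and hemidesmosomes, the junctions that anchor keratin filaments, 0 passed 3-fold upward in CAST+/129- and 1 in both other clones. The median log2 ratios were 0.00, 0.03 and 0.00, against 0 over all genes. Only 8 of the 19 reached 5 FPKM in some library, so that these medians mostly reflect genes with little RNA. Of the 8, Dsp, Jup, Pkp2, Dsc2 and Perp were above wild type in every mutant clone, and Pkp4, Dsg2 and Itga6 below it. The gene past the threshold was Dsp (desmoplakin, which binds keratin filaments to the desmosome), at 4.75, 11.5, 25.2 and 25.5 FPKM. Pkp4, a plakophilin, was at the low end of that list, at 38.5, 28.5, 23.4 and 26.8. Of 11 plakins and keratin-binding proteins measured (Eppk1 was not matched), 1 passed in each clone, and the median log2 ratios were 0.04, 0.04 and 0.28. It was Sfn (14-3-3 sigma, an adaptor protein of epithelial cells), at 10.9, 86.5, 60.8 and 57.4 FPKM, while the crosslinker Macf1 was at 40.0, 31.0, 27.002 and 29.5.

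Of 20 epithelial adhesion and tight junction genes, 3 passed upward in CAST+/129-, 4 in CAST-/129+ and 5 in CAST-/129-, none passed downward, and the median log2 ratio was 0.65, 0.68 and 0.68. Cldn6, a claudin, had the largest ratios of the list, at 1.76, 27.9, 81.8 and 59.7 FPKM. Epcam, an adhesion molecule of epithelial cells, went from 18.3 to 72.4, 85.7 and 79.1. Esrp1, an epithelial splicing regulator, went from 0.396 to 15.6, 22.5 and 17.0. The others past the threshold were Cldn7 in CAST-/129+ and CAST-/129-, at 15.3 and 11.4 FPKM against 0.682, and Cldn4 in CAST-/129-, at 60.5 against 16.9. Cdh1 (E-cadherin), which ESCs already carry, was at 109 FPKM in wild type and 110, 106 and 92.6 in the mutant clones.

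Intermediate filament genes other than keratins, 16 in all, passed upward in 1, 0 and 2 cases and downward in 0, with median log2 ratios of 0.19, 0.10 and 0.445. Nes (nestin, of neural progenitors) was past 3-fold in CAST+/129- and CAST-/129-, at 1.80, 14.3, 10.5 and 19.9 FPKM over the 4 libraries, and Vim (vimentin, of mesenchymal cells) in CAST-/129-, at 83.9, 104, 147 and 271. Lmnb2, a lamin, was at the low end, at 16.7, 22.9, 16.1 and 13.0.

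Factors known to act on epithelial genes were listed as well, and 6 of the 9 and 6 of the 13 below reached 5 FPKM in some library. Of 9 AP-1 and ETS factors, 0 passed in either direction in any clone and the median log2 ratios were 0.10, 0.20 and 0.50, with Jun at 5.34, 8.61, 7.45 and 19.6 FPKM and Jund at 77.9, 80.9, 31.7 and 35.5. Of 13 epithelial transcription factors, 0 passed upward and 1 downward in each clone, with median log2 ratios of 0.17, 0.11 and 0.08. The gene that passed was Klf4, also a pluripotency factor, at 120, 19.3, 13.9 and 8.29 FPKM. Grhl2, a grainyhead factor of epithelial junction genes, was at 0.833, 6.01, 8.72 and 7.26 FPKM, below the threshold.

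Markers of other cell types were measured beside the members. Of 12 trophectoderm markers, 3, 4 and 4 passed upward and none downward, their summed level was 54.0 FPKM in wild type and 290, 286 and 180 in the mutant clones, and none was at 0 in any library. Their median log2 ratios were 1.06, 0.92 and 0.88. Psx1 (listed as Rhox6), a placental homeobox gene, was at 3.19, 129, 135 and 74.5 FPKM, Hand1 at 0.524, 43.9, 43.8 and 19.8, and Plac1 at 0.0577, 17.4, 12.1 and 10.6. Eomes passed in CAST-/129+ and Ascl2 in CAST-/129-, while Tead4 went from 28.3 to 25.6, 16.6 and 10.4. The defining trophectoderm factor Cdx2 was at 0.0712 FPKM in wild type and at 0.710, 1.09 and 1.59, from 4, 20, 15 and 21 alignments.

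Of 13 primitive and visceral endoderm markers, 0 passed upward and 2 downward in each clone, with summed levels of 203, 55.8, 96.1 and 52.8 FPKM and median log2 ratios of -0.60, -0.12 and -0.83. Gata6 passed downward in every clone, at 42.9, 2.94, 6.77 and 4.51 FPKM, with Gata4 in CAST+/129- and Lama1 in both others. Foxa2 had the largest ratio in CAST-/129- without passing, at 1.36, 0.643, 9.05 and 11.4. Afp was at 0 in wild type, Afp and Apoa1 in CAST+/129-, and Ttr and Apoa1 in CAST-/129-. Of 11 surface ectoderm and stratified epithelium markers, 0 passed in either direction, none reached 5 FPKM, and the summed level was between 4.32 and 9.07 FPKM in all libraries. The median log2 ratios were 0.03, 0.06 and 0.06. Of these markers 4, 3, 3 and 2 were at 0, among them Trp63, the basal epithelial factor, in wild type and CAST+/129-.

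Of 16 fibroblast markers, 2, 2 and 9 passed upward, and their summed level was 243, 210, 211 and 730 FPKM, with median log2 ratios of 0.42, 0.37 and 1.71. Fn1 (fibronectin) was the most abundant of them, at 191, 110, 104 and 210 FPKM, and the other 15 summed to 52.6, 99.9, 107 and 520. The pair past the threshold in CAST+/129- and CAST-/129+ were the type I collagen genes, Col1a1 at 3.48, 39.0, 38.9 and 174 FPKM and Col1a2 at 1.14, 11.9, 13.6 and 53.4. Lum was at 0 in wild type, and Pdgfra at 22.6, 1.60, 2.55 and 4.48, past 3-fold downward in each clone. Of 12 ESC markers, 0 passed upward and 2, 2 and 6 downward, with Klf4 and Tfcp2l1 in every clone and Sox2, Nanog, Zfp42 and Esrrb in CAST-/129- alone. Their summed level was 1848, 1554, 1500 and 1108 FPKM, none was at 0, and the median log2 ratios were -0.39, -0.78 and -1.44. Lin28a had the largest ratio in CAST-/129-, at 39.3, 62.6, 105 and 81.6 FPKM. The part of these cell types in the keratin levels was not tested.

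**Figure D4:**
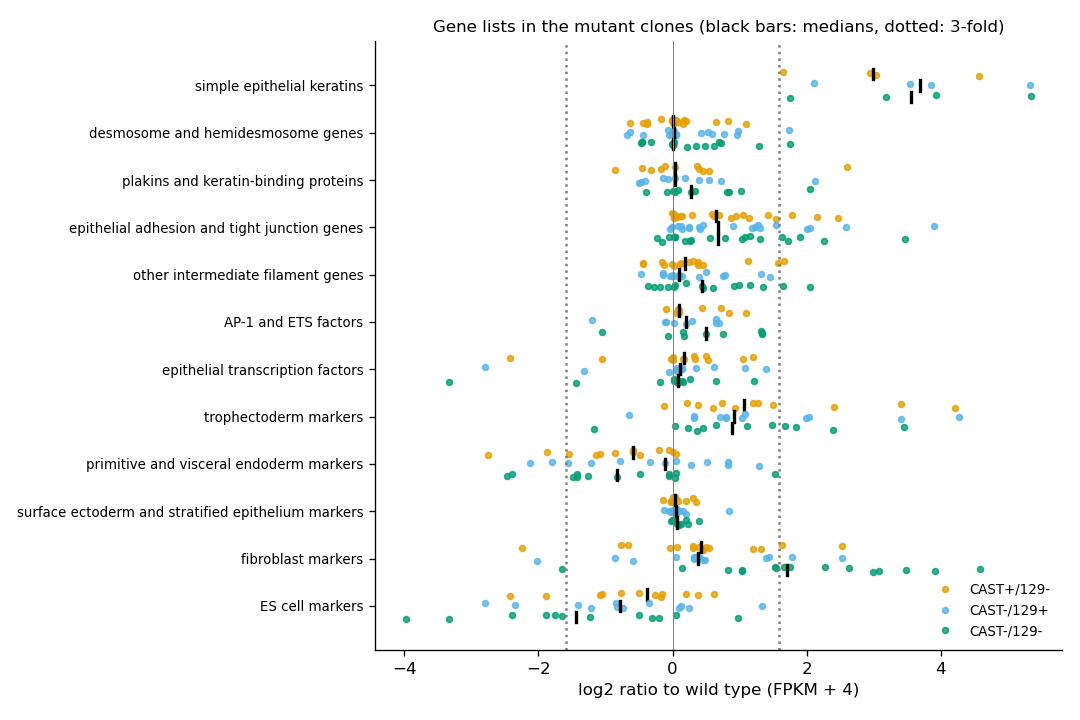
Log2 ratio to wild type (FPKM plus 4) of each gene of the lists in the 3 mutant clones, with black bars at the medians and dotted lines at 3-fold. The simple epithelial keratins have medians between 2.99 and 3.69, and the fibroblast list has a median of 1.71 in CAST-/129-. Points near 0 include genes with little RNA in any library, such as 11 of the 19 desmosome genes.

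The protein-coding neighbours are given as levels. Eif4b, a translation factor gene 41747 bp from Krt18, was at 140 FPKM in wild type and 192, 185 and 166 in the mutant clones, and Eif1, the nearest on the higher-coordinate side of Krt19, at 104, 101, 126 and 118. On the other sides, the nearest protein-coding genes not named Krt followed by a number were Gm5414, Krtap17-1, 6030408B16Rik and 1700011A15Rik. They were under 0.5 FPKM in all libraries. Keratin genes under other names were not excluded.

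The gene closest to Krt18 in its 3 log2 ratios was H19, an imprinted noncoding RNA, whose largest difference was 0.61, at 11.9, 571, 554 and 589 FPKM. It was followed by Gm10801, Gm10800, Krt8 and Tagln, with largest differences of 1.26, 1.57, 1.62 and 1.71. Krt19 and Krt7 were at 2.16 and 3.59 from Krt18, with 13 and 72 genes closer. Closest to Krt8 were Tagln, an actin-binding protein of smooth muscle, Cldn6, the hormone gene Sct, the LIM protein gene Crip1 and Gm10718, with largest differences of 0.45, 0.47, 0.50, 0.64 and 0.66. Krt19, Krt18 and Krt7 were at 0.74, 1.62 and 2.18 from Krt8, with 6, 35 and 79 genes closer. The likeness rests on 4 libraries, of which wild type is shared by all ratios.

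The histone marks came from unedited cells and from libraries that the choice of genes did not use. H3K4me3 marks active promoters, and H3K27ac active promoters and enhancers. Alignments were counted by their 5′ end within 2 kb on each side of the start and divided by the mean density of the chromosome, and no input was subtracted. The F123 H3K4me3 library held 7108751 distinct alignments from 9007794 reads and the J1 H3K27ac library 7743500 from 81285265. None of the 4 member promoters reached 5 times the mean in any library, whereas 45.2% of 22342 protein-coding starts did for H3K4me3 in F123, 27.2% for H3K27ac in F123 and 21.5% for H3K27ac in J1.

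H3K4me3 stood at 1.86 times the mean at Krt18 (1.15 to 2.85), 2.31 at Krt8 (1.51 to 3.38), 2.40 at Krt19 (1.68 to 3.32) and 1.60 at Krt7 (0.946 to 2.52), from 18 to 36 alignments. The upper ends of all intervals lie below 5. With 5 kb on each side of the start, Krt8 was at 1.49 and Krt19 at 1.55. Divided by the autosome mean, Krt19 was at 3.21. Of 4985 genes whose wild type RNA level was within 2-fold of that of Krt8, 84.7% reached 5 times the mean, with a median of 10.3. Among genes within 2-fold of Krt18, 45.4% did, and among those near Krt19 51.9% and near Krt7 5.38%. Krt8 thus had RNA at 14.6 FPKM with less H3K4me3 at its start than most genes of that level. Whether the ChIP-seq and the wild type RNA came from the same culture of F123 is not given in the sources used here.

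H3K27ac in J1 was at 1.99 times the mean at Krt18 (1.31 to 2.89), 2.87 at Krt8 (2.04 to 3.92), 1.43 at Krt19 (0.945 to 2.09) and 1.40 at Krt7 (0.842 to 2.18). Krt18 and Krt19 both held 27 alignments, so they differ only by the mean of their chromosome. Divided by the autosome mean, both were at 2.20. Among genes within 2-fold of the wild type RNA level of Krt18, 16.3% reached 5 times the mean for H3K27ac in J1. The share was 40.6% near Krt8, 18.75% near Krt19 and 0.742% near Krt7. For H3K27ac in F123 the shares were 18.3%, 53.3%, 22.4% and 0.371% in the same order. The F123 H3K27ac library, with 1576875 distinct alignments from 8047321 reads, held too few distinct alignments to order the members. It held 1 alignment at Krt18, 0 at Krt8, 0 at Krt19 and 3 at Krt7, and a count of 0, taken as a limit of 3 counts, allows up to 1.13 times the mean at Krt8 and 0.755 at Krt19. The exact 95% intervals reach 1.39 and 0.928.

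Within 10 kb of the starts, in bins of 500 bp, single bins rose above 5 times the mean. In the first intron of Krt8, 1000 to 1500 bp after its start, H3K4me3 was at 5.68 times the mean from 8 alignments and J1 H3K27ac at 8.24 from 14, while F123 H3K27ac held 0. In the second intron of Krt7, 2500 to 3000 bp after the start, J1 H3K27ac was at 7.06 from 12 alignments and F123 H3K27ac at 6.01 from 2. J1 H3K27ac also reached 5.30 from 9 alignments in a bin upstream of Krt8, and in the bin before the one named in Krt7, and F123 H3K27ac 6.01 from 2 in the last bin of Krt8. Upstream of Krt18, in the first bin of the 10 kb, H3K4me3 was at 7.81 from 11 alignments. Krt19 had no bin above 5 times the mean in any library. These bins were singled out after their values were seen, among 40 bins per gene and library.

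**Figure D5:**
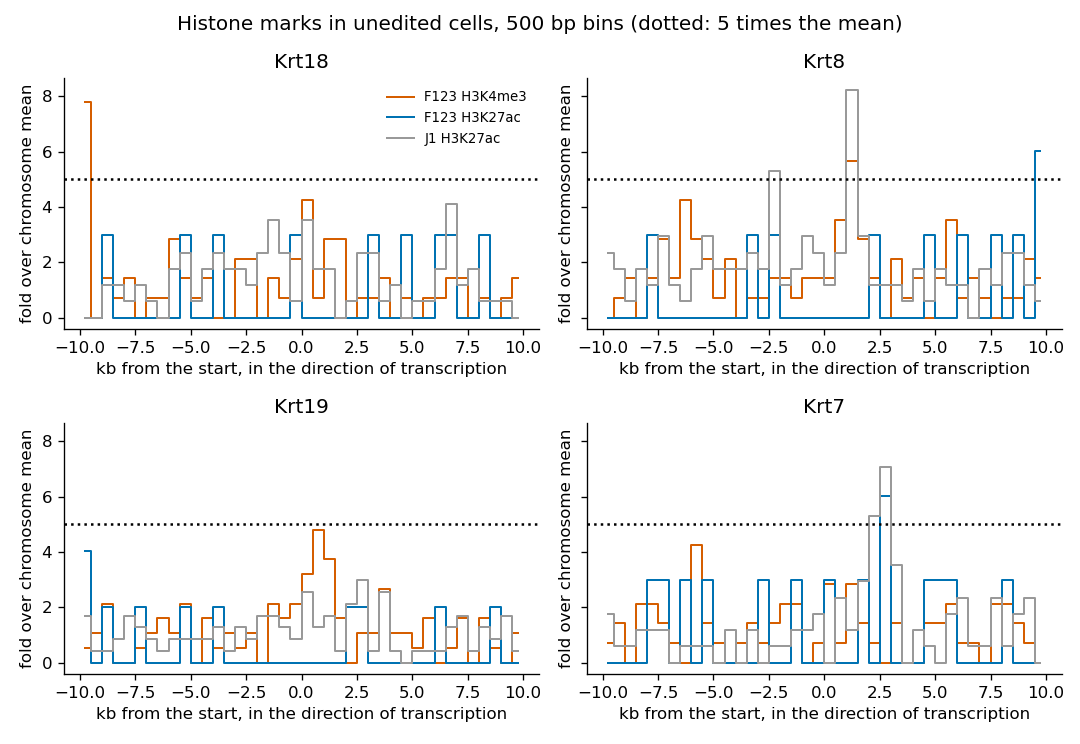
Alignments of H3K4me3 (F123) and H3K27ac (F123 and J1) in 500 bp bins over the chromosome mean, by distance from the start of each member in the direction of transcription, with a dotted line at 5 times the mean. The starts of all members lie below the line, and bins above it stand in the first intron of Krt8 and the second intron of Krt7. Others stand upstream of Krt18 and of Krt8 and in the last bin of Krt8.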

How the data were processed

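RNA-seq of 4 F123 clones and ChIP-seq of F123 and J1 cells were used, with 1 library per condition. The authors mapped RNA-seq reads with Novoalign and ChIP-seq reads with Bowtie to mm9, per the labels. They deposited alignments with a count of the reads behind each, and these counts were used as deposited. The authors' versions are not given in the sources used here. The midpoint of each RNA alignment was assigned to a gene of GENCODE M1 on mm9 where its exons overlap no other gene, using strand, for genes with at least 200 such bases. FPKM was computed over alignments on genes, and 4 was added before log2 ratios, with a 3-fold threshold. With 1 library per condition no test was made, and intervals are exact 95% Poisson intervals that take alignments as independent.

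Alternatives over main-transcript exons, coding bases and aligned bases were chosen after seeing the data. Named are the 4 members and genes of fixed lists. From a list these are the largest and smallest ratio in CAST-/129- among genes of at least 5 FPKM. All that passed are named too where 5 or fewer did. Also named are the nearest protein-coding neighbours not called Krt and a number, and the 5 genes most like Krt18 and Krt8. Other keratins, Pou5f1, Fn1, marker genes at 0, Cdx2, Trp63, the desmosome genes over 5 FPKM and the 6 ESC markers that passed downward in CAST-/129- fall outside this rule and were named after their values were seen. The members and lists were chosen with earlier results of these data known. Copies of member transcripts of at least 300 bp and 80% identity were searched with blastn 2.17.0, and promoters came from RefSeq (GRCm38.p6). Scripts ran on scipy 1.17.1, numpy 2.4.6, pandas 2.3.3 and matplotlib 3.10.9 under Python 3.11.15, with samtools 1.23.1.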

Additional observations from a re-analysis of the deposited data

How the results depend on the processing

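With 1 library per condition, no difference between genotypes has a replicate error, and the shallowest library bounds what could be seen of low genes. No paired analysis was possible because each group holds 1 library. The number of members past 3-fold upward stayed at 3 or 4 of 4 in each mutant clone under every alternative. The alternatives covered the counting unit, library size, depth, strand, pseudo number, threshold and assignment. The members kept a positive log2 ratio in all of them. This says little, since they were chosen on this contrast and a pseudo number or threshold cannot change a sign. A 2-fold threshold, a pseudo number of 1 and a filter on a mean of at least 1 FPKM could not lose a member and say nothing about stability. Krt7 was the member lost where the count was 3. This was so with all alignments of the file as library size in CAST+/129- and CAST-/129-, with reads in place of alignments in CAST+/129-, and in every mutant clone with a pseudo number of 10 or a 5-fold threshold. Aligned bases in place of alignments, added after seeing the data, lost it in CAST+/129-, at 1.56. The count of all genes past the threshold upward depended on the pseudo number and the fold. In the order CAST+/129-, CAST-/129+ and CAST-/129- it was 101, 149 and 258, against 287, 427 and 701 with a pseudo number of 1, 50, 75 and 120 with 10, 285, 384 and 630 at 2-fold, and 49, 56 and 103 at 5-fold. The number of member promoters past 5 times the mean was 0 in each ChIP-seq library under the alternatives of window, counting unit and normalization. A threshold of 10 times could only give 0 too, and no lower threshold was run.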
